A study of Rattus norvegicus with 16 samples.

Results

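Fibroblast growth factors (FGFs) and their receptors were examined in newborn hearts from 2 rat strains. The strains were the inbred Hypertrophic Heart Rat (HHR), named for an enlarged heart, and the Normal Heart Rat (NHR), which serves as its control. The size of these newborn hearts was not among the values used here. The 10 genes described here are 7 ligands, Fgf1, Fgf2, Fgf9, Fgf10, Fgf12, Fgf13 and Fgf16, and 3 receptors, Fgfr1, Fgfr2 and Fgfr3, out of 14324 genes named on the array. Each gene was read from the brightest probe set that the array's annotation assigns to that symbol alone, and each of the 10 had exactly 1 such probe set. One Affymetrix Rat Gene 1.0 ST array was run for each of 16 rats aged 2 days, giving 4 arrays for each sex of each strain. The labels describe the HHR hearts as hypertrophic, and name no transgene or treatment for either strain. The design text speaks of ventricles separated from the atria, whereas the growth protocol names the whole heart. Levels are log2 expression values, so a difference of 1 is a doubling. The labels do not tie rats to litters or dams, so strain and litter cannot be told apart, and p-values measure only the spread between these animals.

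FGFs bind tyrosine kinase receptors together with heparan sulphate chains on the cell surface and start the Ras and MAP kinase cascade, which in turn induces its own inhibitors of the Sprouty and Dusp families. In the heart, secreted FGFs pass between the epicardium, the endocardium and the muscle and act on the division of young cardiomyocytes. A separate branch of the family, the FGF homologous factors such as Fgf12 and Fgf13, is not secreted but stays inside the cell, where it binds voltage-gated sodium channels. Because whole tissue was measured, fewer cells of a type and less RNA per cell cannot be told apart, and the probe sets do not separate splice forms.

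The array medians lay between 7.19 and 7.28, and the table held 27342 probe sets. The mean level of 8 cardiomyocyte markers was between 13.16 and 13.39 on every array, and all arrays carried the heart label. Of the 27342 probe sets, 5651 (20.7%) differed between the strains at a Benjamini-Hochberg adjusted p under 0.05 in limma, 2636 (9.64%) being higher in HHR and 3015 (11.0%) lower. Within groups, the first principal component spread the NHR arrays to both ends, while the HHR arrays scored -3.72 to 7.48 and NHR male 3 scored 1.74. At one end were NHR female 1 (-16.9), NHR male 2 (-13.2), NHR female 2 (-12.6) and NHR male 1 (-11.1), which were left out only singly. At the other end were NHR male 4 (22.6), NHR female 4 (15.1) and NHR female 3 (14.4), called here the 3 arrays that stood apart. Results that moved without these 3 arrays are given with and without them.

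Fgf12 was the member that differed between the strains. Its level was 8.51 ± 0.10 in HHR and 8.11 ± 0.08 in NHR (mean ± SD, n = 8 each). In HHR females the 4 arrays read 8.67, 8.56, 8.56 and 8.49, and in HHR males 8.57, 8.37, 8.48 and 8.36. In NHR females they read 8.14, 8.10, 7.99 and 8.16, and in NHR males 7.99, 8.12, 8.18 and 8.22. Every HHR array was above every NHR array, a separation shown in either direction by 1134 of all probe sets (4.15%). The difference was 0.39 (SE 0.05, 95% confidence interval 0.29 to 0.49, limma adjusted p = 3.61e-05), which is 1.31-fold (95% interval 1.22 to 1.41). Among the 10 members, 1 was higher in HHR and 0 were lower, against 9.64% and 11.0% of all probe sets. The share of members that passed, 10%, was below the 20.7% of all probe sets, and the median of the members' differences was 0.06 against -0.03 for all probe sets. For all 14324 genes, each read by its brightest probe set as the members were, the share was 23.1% and the median -0.02.

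**Figure D1:**
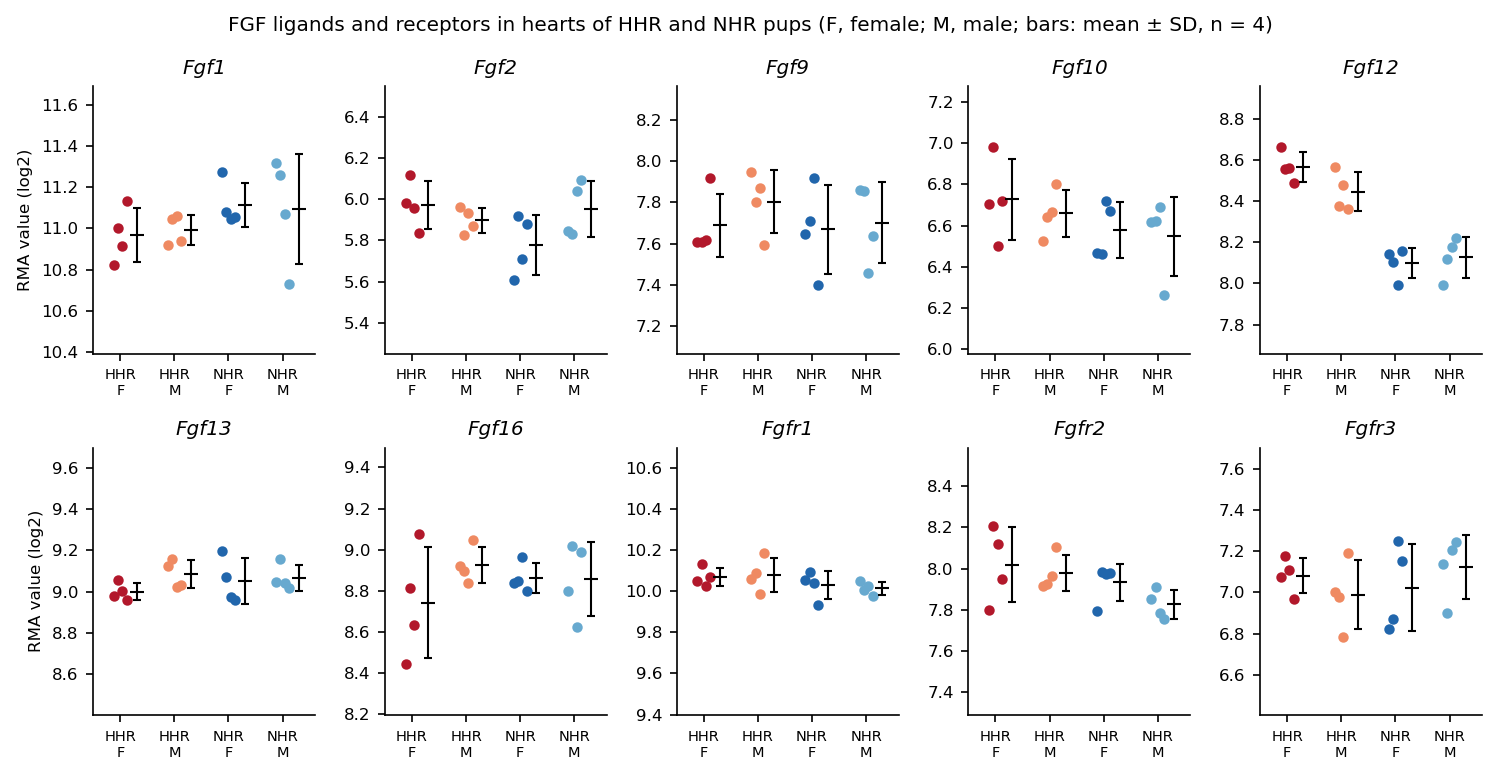
Log2 level of each of the 10 members on every array (vertical axes, one panel per gene) in the 4 groups, with points for arrays and bars for the group mean and SD (n = 4). The Fgf12 points of both HHR groups, 8.36 to 8.67, lie above those of both NHR groups, 7.99 to 8.22, while the strains overlap in the other 9 genes.

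The Fgf12 difference was present in both sexes. In descending order the group means were 8.57 ± 0.07 in HHR females, 8.45 ± 0.10 in HHR males, 8.13 ± 0.10 in NHR males and 8.10 ± 0.07 in NHR females (SD, n = 4). The ranges of females and males overlapped within each strain, and the sex difference over both strains was -0.05 (adjusted p = 0.894). The ranges of HHR males and NHR males did not overlap. In females the strain difference was 0.47 (SE 0.07, limma adjusted p = 5.23e-04), where 3278 probe sets (12.0%) passed. In males it was 0.32 (SE 0.07, adjusted p = 0.0129), where 1098 probe sets (4.02%) passed, and without HHR male 1 it was 0.28 with an adjusted p of 0.051. The male difference minus the female difference was -0.15 (SE 0.10, 95% interval -0.35 to 0.05, adjusted p = 0.994).

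Over the other settings tried, the strain difference of Fgf12 ranged from 0.37 to 0.42 and its adjusted p from 1.40e-05 to 2.69e-04. Markers of several cell types moved with strain too. Of 8 cardiomyocyte markers 0 rose and 5 fell in HHR, with a median difference of -0.17, and their mean level was 13.16 to 13.28 on HHR arrays and 13.24 to 13.39 on NHR arrays. Of 7 atrial markers 4 rose and 1 fell (median 0.34), with mean levels of 9.68 to 10.59 in HHR and 9.22 to 10.03 in NHR. Of 9 fibroblast markers 3 rose and 0 fell (median 0.11), of 7 epicardial markers 3 rose and 0 fell (median 0.18), and of 6 endothelial markers 0 rose and 4 fell (median -0.18). Their mean levels in HHR and NHR were 10.67 to 10.96 and 10.53 to 10.80 for fibroblast, 7.74 to 8.00 and 7.36 to 7.80 for epicardial, and 10.24 to 10.39 and 10.39 to 10.59 for endothelial markers. Of 4 neuron and glia markers 0 rose and 0 fell, with mean levels of 6.35 to 6.46 in HHR and 6.26 to 6.58 in NHR. The part of these shifts in the Fgf12 difference was not tested.

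The smooth muscle and pericyte list had 2 of 7 markers higher and 1 lower in HHR (median 0.04), the leukocyte list 1 of 7 higher and 1 lower (median -0.05), and the red cell list 2 of 5 higher and 2 lower (median 0.21). Of the 7 lung, liver and thymus markers 1 was higher and 0 were lower (median 0.03). None of the defining markers could be read as 0, since the values carry no background level.

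RefSeq gives 2 promoter windows for Fgf12 on the GRCr8 rat genome, and they are shown with that of Fgf13, its closest relative among the members, because Fgf12 is the member that differed between the strains and Fgf13 the related one that did not pass. Each window runs from 250 bases before to 50 after the annotated start, and its 300 bases are given 5′ to 3′ on the gene's strand. Capitals mark every match on either strand to the TATA box TATAAA, the CCAAT box CCAAT or the GC box GGGCGG. The first Fgf12 window is chr11:85501697-85501996 (plus strand), the second chr11:85801508-85801807 (plus strand), and the Fgf13 window chrX:142423487-142423786 (minus strand).
Fgf12, first start: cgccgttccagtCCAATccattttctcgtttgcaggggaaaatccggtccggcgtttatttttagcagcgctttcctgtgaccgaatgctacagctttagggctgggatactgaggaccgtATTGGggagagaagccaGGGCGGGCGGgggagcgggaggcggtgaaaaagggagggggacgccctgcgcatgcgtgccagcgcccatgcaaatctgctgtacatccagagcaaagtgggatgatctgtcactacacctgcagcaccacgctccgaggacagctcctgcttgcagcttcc
Fgf12, second start: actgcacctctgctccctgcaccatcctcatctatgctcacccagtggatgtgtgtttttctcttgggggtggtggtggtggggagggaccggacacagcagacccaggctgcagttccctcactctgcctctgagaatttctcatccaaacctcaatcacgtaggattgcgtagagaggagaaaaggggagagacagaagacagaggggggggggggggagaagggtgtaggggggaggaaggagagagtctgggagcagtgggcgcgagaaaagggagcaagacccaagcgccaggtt
Fgf13: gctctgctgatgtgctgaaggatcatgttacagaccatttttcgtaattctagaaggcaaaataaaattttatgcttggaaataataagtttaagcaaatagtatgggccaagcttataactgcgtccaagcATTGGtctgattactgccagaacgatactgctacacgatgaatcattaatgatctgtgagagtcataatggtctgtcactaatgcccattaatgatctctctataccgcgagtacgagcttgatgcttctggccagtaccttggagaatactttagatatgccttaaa

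The first Fgf12 window held 2 CCAAT boxes, with first bases at -238 and -129 (the start base being 0), and 2 overlapping GC boxes at -112 and -108. It also held 1 E-box (CANNTG) at position 4. The second Fgf12 window held none of these motifs, nor the GATA motif AGATAA, and the Fgf13 window held 1 CCAAT box at -118 and no other. The GC content was 58.7% and 58.3% in the Fgf12 windows and 39% in the Fgf13 window, against a median of 51.7% over 33469 windows. Of all those windows 14.2% held a TATA box, 37.5% a CCAAT box, 33.1% a GC box, 72.1% an E-box and 11.6% the GATA motif on either strand. Of the 9 members with a window, 1 (Fgf16) held a TATA box, 6 a CCAAT box, 4 a GC box, 7 an E-box and 0 the GATA motif. Fgfr1 had no window in the table used. The array does not tell which Fgf12 start was used.

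The genes that flank Fgf12 were read to see whether the difference extended along the chromosome. Of the 5 nearest genes with a probe set on each side in RefSeq order, 0 of 10 passed the threshold. Ccdc50, next on one side, differed by 0.10 (SE 0.04, adjusted p = 0.0853), with 5 of 8 HHR arrays above all NHR arrays. Mb21d2, next on the other side, differed by -0.02 (adjusted p = 0.81), and Hes1, a transcriptional repressor of the Notch pathway, by -0.11 (adjusted p = 0.119). The differences of the other 7, Cpn2, Opa1, Plaat1, Uts2b, Ostn, Il1rap and Cldn16, lay between -0.09 and 0.10. A sequence difference between the strains under the probes cannot be told apart from a difference in RNA here.

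**Figure D2:**
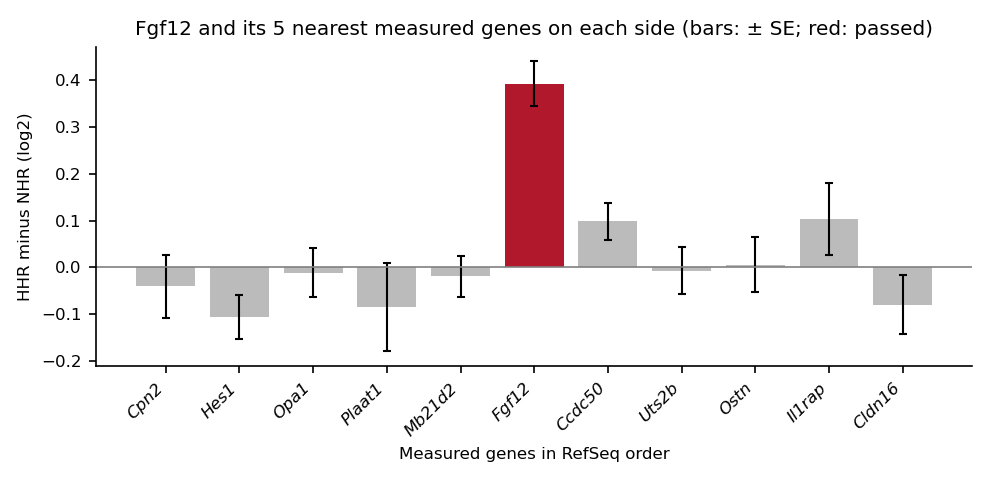
Difference HHR minus NHR in log2 level (vertical axis) with its standard error for Fgf12 and the 5 nearest measured genes on each side, in chromosomal order (horizontal axis, gene order not to scale). Fgf12 stands at 0.39 and its neighbours between -0.11 and 0.10.

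Fgf13, the other intracellular member and X-linked, did not pass. Its levels were 8.96, 9.03 and 9.16 in HHR and 8.96, 9.04 and 9.20 in NHR (lowest, median and highest of 8 arrays). The strain difference was -0.02 (SE 0.04, 95% interval -0.11 to 0.08, adjusted p = 0.835), so the ranges coincided almost entirely. Of the 12 measured sodium channel subunits and junction proteins that partner these factors, 0 rose and 1 fell in HHR, with a median of 0.01. The gene that fell was Jup, plakoglobin of the desmosome and adherens junction, by 0.17 (SE 0.05, adjusted p = 0.0262), but it missed the threshold with median centring (0.07) and without HHR female 1, HHR male 1 or NHR male 1 (0.0559 to 0.0588). Without the 3 arrays that stood apart 0 of the 12 rose and 2 fell, while with a replicate block, 1 rose and 3 fell. Among genes that did not pass, chosen after their values were seen, Scn3b, a sodium channel beta subunit, was at 0.35 (SE 0.13, adjusted p = 0.0681), Scn1a at -0.18 (0.0795) and Pkp2, a desmosomal plakophilin, at -0.14 (0.0661).

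The 5 secreted or released ligands, Fgf1, Fgf2, Fgf9, Fgf10 and Fgf16, did not pass the strain test. Fgf1, an FGF without a classical signal peptide that binds all FGF receptors, read 10.82, 10.97 and 11.14 in HHR and 10.73, 11.07 and 11.32 in NHR (lowest, median, highest). Its difference was -0.12 (SE 0.07, 95% interval -0.28 to 0.03, adjusted p = 0.259). The lowest of all 16 arrays was NHR male 4, one of the 3 arrays that stood apart. The 3 highest were NHR male 1 (11.32), NHR female 1 (11.27) and NHR male 2 (11.26), from the other end of the first principal component. Without NHR male 4 the difference was -0.18 (adjusted p = 0.0328), past the threshold. It was also past it without the 3 arrays that stood apart together (-0.22, 0.0344). Both settings kept the 3 highest arrays, which were left out only singly. Leaving out NHR male 1 gave -0.087 (adjusted p = 0.442), so the Fgf1 result depended on which NHR arrays were kept.

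Fgf2, basic FGF, read 5.83, 5.94 and 6.12 in HHR and 5.61, 5.86 and 6.09 in NHR. Its probe set was above the 40th percentile of all values in the table on 0 of the 16 arrays, so its values are dim. The difference was 0.07 (SE 0.06, adjusted p = 0.44). In females it was 0.19 (95% interval 0.02 to 0.37, adjusted p = 0.144) and in males -0.05 (adjusted p = 0.773), and the male difference minus the female difference was -0.25 (unadjusted p = 0.0494, adjusted p = 0.969).

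Fgf9 and Fgf16 belong to one subfamily of secreted ligands, and Fgf10 is a mesenchymal ligand that acts mainly on the epithelial form of Fgfr2. Fgf9 read 7.59, 7.71 and 7.95 in HHR and 7.40, 7.68 and 7.92 in NHR, with a difference of 0.06 (SE 0.08, adjusted p = 0.651). Fgf16, X-linked, read 8.44, 8.87 and 9.08 in HHR and 8.63, 8.84 and 9.02 in NHR, with a difference of -0.03 (SE 0.08, adjusted p = 0.854). The HHR and NHR ranges overlapped over most of their width in both.

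Fgf10 read 6.50, 6.69 and 6.98 in HHR and 6.26, 6.62 and 6.72 in NHR, and 3 of 8 HHR arrays were above all NHR arrays. Its difference was 0.13 (SE 0.08, 95% interval -0.03 to 0.29, adjusted p = 0.242). NHR male 4 was its lowest array. The Fgf10 probe set was above the 40th percentile of all values in the table on 11 of the 16 arrays. The scatter within groups was widest for Fgf9 (SD 0.181), Fgf16 (0.173), Fgf10 (0.164) and Fgf1 (0.162), and narrowest for Fgfr1 (0.0597), Fgf13 (0.0755) and Fgf12 (0.0867).

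**Figure D3:**
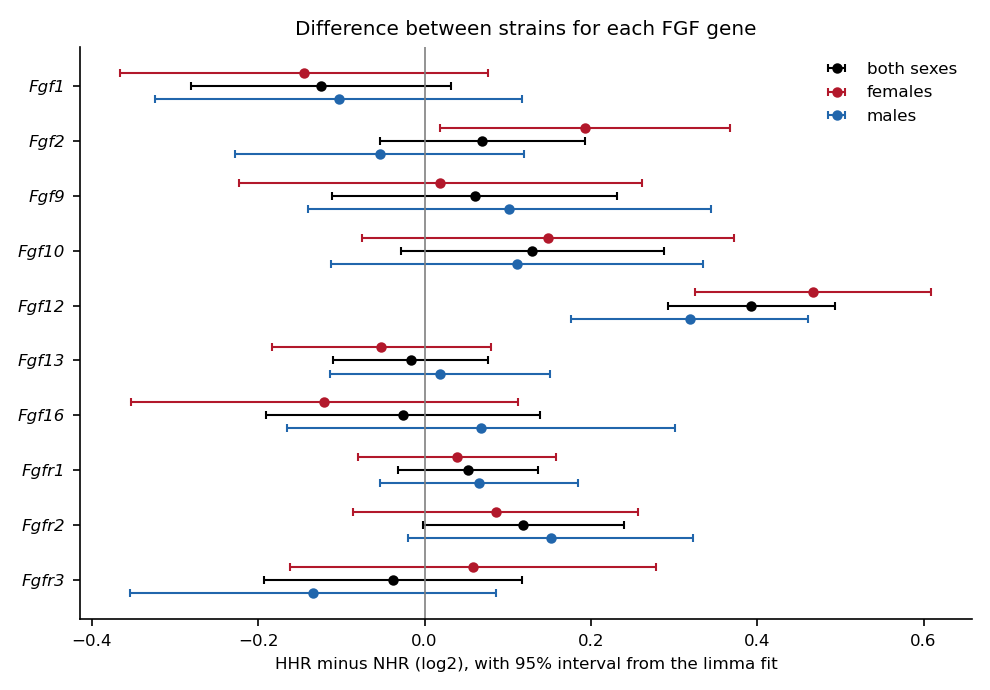
Strain difference in log2 level, HHR minus NHR (horizontal axis), of each member with its 95% confidence interval, over both sexes and within females and males. The interval of Fgf12 lies wholly above 0, from 0.29 to 0.49 over both sexes, that of Fgfr2 over both sexes starts at -0.0025, and that of Fgf2 in females runs from 0.02 to 0.37.

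The receptors did not pass either. Fgfr1, the main FGF receptor of cardiomyocytes, read 9.99, 10.06 and 10.18 in HHR and 9.93, 10.03 and 10.09 in NHR, with a difference of 0.05 (SE 0.04, 95% interval -0.03 to 0.14, adjusted p = 0.386). Fgfr3 read 6.78, 7.04 and 7.19 in HHR and 6.82, 7.15 and 7.25 in NHR, with a difference of -0.04 (SE 0.07, adjusted p = 0.766). For both, most arrays of one strain lay within the range of the other.

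Fgfr2 was the member nearest the threshold after Fgf12. Its values were 7.80, 8.20, 8.12 and 7.95 in HHR females and 7.92, 7.93, 7.96 and 8.10 in HHR males. They were 7.80, 7.98, 7.97 and 7.98 in NHR females and 7.85, 7.91, 7.79 and 7.75 in NHR males. The difference was 0.12 (SE 0.06, unadjusted p = 0.0544, adjusted p = 0.159), and the lowest adjusted p in any setting tried was 0.0506. In males every HHR array was above every NHR array, as was so for 2 of the 10 members, Fgf12 and Fgfr2, in either direction against 11.8% of all probe sets, yet the male difference of 0.15 had an adjusted p of 0.32. In females 1 of the 10 members, Fgf12, separated fully, against 18.4% of all probe sets.

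Sex and its interaction with strain gave 0 calls among the members. Over all probe sets 3 (0.0110%) differed between the sexes and 0 (0%) showed an interaction in limma, where 1390 had an unadjusted interaction p under 0.05, 1 of them for a member (Fgf2). For the X-linked genes, the level in males minus that in females was 0.05 for Fgf13 (95% interval -0.04 to 0.14, adjusted p = 0.875) and 0.09 for Fgf16 (-0.07 to 0.25, adjusted p = 0.873). The adjusted p of the sex difference was 0.856 to 0.997 across the 10 members.

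The rest of the pathway was read from 7 lists, of which 88 genes were measured. Of these 10 rose and 7 fell in HHR, 19.3% in all against 20.7% of all probe sets, and their median difference was 0.01. Read by brightest probe set, as the lists were, 23.1% of all 14324 genes passed, with a median difference of -0.02. Of the 14 other FGF ligands measured, 0 rose and 0 fell, with differences from -0.13 to 0.12 and a median of -0.00078. Fgf15 and Fgf18 were not analysed here.

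Among 10 other receptors and co-receptors 1 rose and 2 fell, with a median of -0.07. Ncam1, a cell adhesion molecule that also binds FGF receptors, had the largest difference of any gene in the 7 lists. Its 8 HHR arrays read 11.32 to 11.60 and its 8 NHR arrays 11.86 to 12.08, without overlap, and it fell by 0.55 in HHR (SE 0.05, adjusted p = 9.49e-07). Flrt1, a membrane protein that binds FGF receptors, fell by 0.20 (SE 0.05, adjusted p = 0.00677). Fgfrl1, a receptor without a kinase domain, rose by 0.20 (SE 0.06, adjusted p = 0.0275), but it was 0.10 (0.214) without the 3 arrays that stood apart and missed the threshold without any 1 of 7 arrays (HHR female 2, HHR female 3, HHR male 3, NHR female 3, NHR female 4, NHR male 3 or NHR male 4). Fgfr4 was at -0.04 (adjusted p = 0.654).

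Of 16 heparan sulphate carriers and enzymes 5 rose and 1 fell, with a median of 0.07. Sulf1, which removes 6-O-sulphate from heparan sulphate outside the cell, read 7.82 to 8.45 in HHR and 8.51 to 8.86 in NHR and fell by 0.53 (SE 0.08, adjusted p = 2.36e-04). Gpc3, a glypican that carries such chains, rose by 0.32 (SE 0.06, adjusted p = 0.00118), with all 8 HHR arrays above all NHR arrays. Hpse, the heparanase that cuts the chains, rose by 0.30 (SE 0.07, adjusted p = 0.00837). The others that rose were Hs6st1 and Ndst1, sulphotransferases, and the syndecan Sdc3, which were chosen after their values were seen, by 0.21 to 0.23. Without the 3 arrays that stood apart these 3 missed the threshold (0.12 to 0.17, adjusted p = 0.0814 to 0.128), leaving 3 that rose and 1 that fell. Of the markers given above, 3 of 9 fibroblast and 3 of 7 epicardial ones rose in HHR, and their part in these differences was not tested.

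Among 15 adaptors and kinases 2 rose and 2 fell, with a median of -0.03. Hras was counted by its brightest probe set, which did not pass, while a dimmer one was lower in HHR (limma adjusted p = 0.002). Plcg1, the phospholipase that FGF receptors recruit, fell by 0.23 (SE 0.05, adjusted p = 0.00225), with all 8 HHR arrays below all NHR arrays. Frs2, the docking protein of FGF receptors, rose by 0.31 (SE 0.07, adjusted p = 0.00629), and by 0.19 (0.0473) without the 3 arrays that stood apart. Rps6ka2, a kinase downstream of MAP kinase, rose by 0.14 (SE 0.04, adjusted p = 0.0085), with no overlap of the strains. Ptpn11, the phosphatase Shp2, chosen after its value was seen, fell by 0.17 (adjusted p = 0.03) and missed the threshold in 9 of 25 other settings, among them without the 3 arrays (-0.12, 0.155), where 2 of the 15 rose and 1 fell.

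Of 11 feedback inhibitors 2 rose and 0 fell, with a median of 0.14. Dusp5, a nuclear ERK phosphatase, rose by 0.30 (SE 0.09, adjusted p = 0.0208), and Spry1, a Sprouty protein, by 0.16 (SE 0.05, adjusted p = 0.033). Without the 3 arrays that stood apart 0 rose, Dusp5 being at 0.16 (0.145) and Spry1 at 0.12 (0.167), and Spry1 also missed the threshold with quantile normalization (0.0839) and without HHR female 1, HHR female 3, HHR male 2, HHR male 4, NHR female 2, NHR female 4, NHR male 3 or NHR male 4. Spry2 was at 0.14 (adjusted p = 0.0654), Spry4 at 0.15 (0.14) and Dusp6, an ERK phosphatase induced by FGF signalling, at 0.08 (0.53).

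Of 10 transcriptional targets 0 rose and 1 fell, with a median of 0.02. The gene that fell was Ets1, a transcription factor of the Ets family, by 0.25 (SE 0.04, adjusted p = 3.13e-04). Ets1 is also expressed in endothelium, of whose 6 markers 4 fell in HHR, and their part in its difference was not tested. Etv4 and Etv5, Ets factors that FGF signalling induces, were at 0.06 (adjusted p = 0.359) and 0.15 (0.0681).

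**Figure D4:**
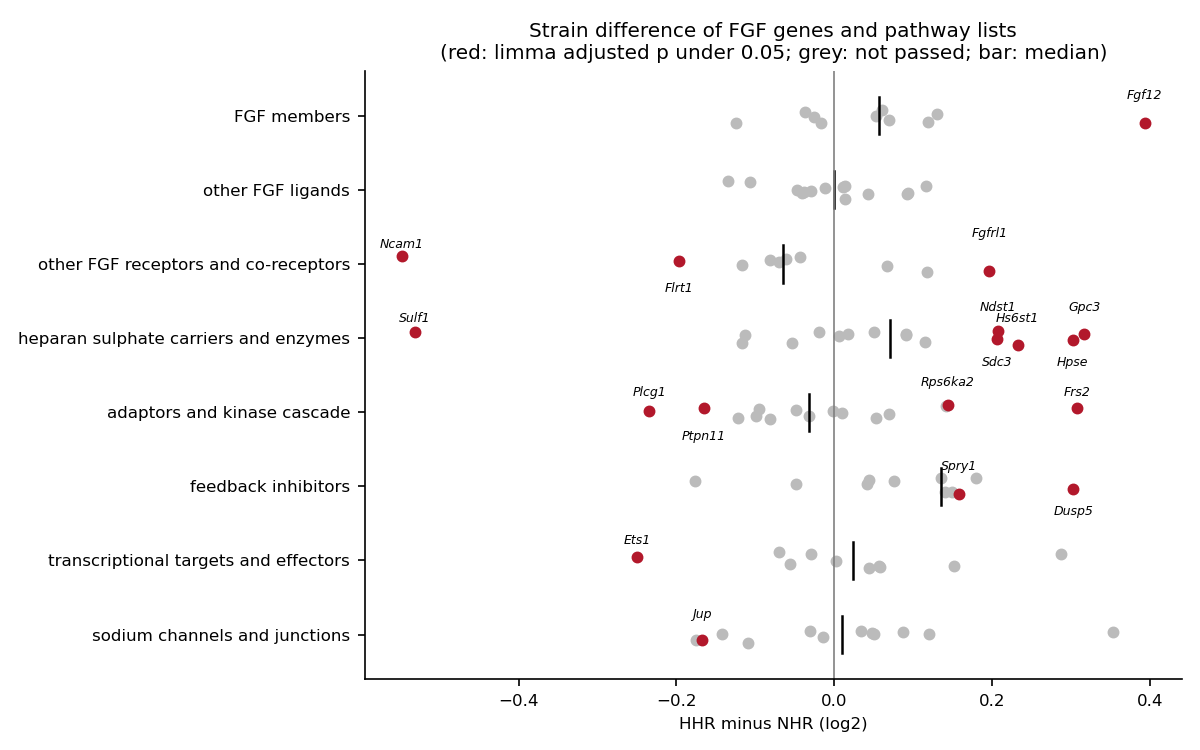
Strain difference in log2 level, HHR minus NHR (horizontal axis), of the 10 members and of every measured gene in the 7 pathway lists (rows), in red with a label where the adjusted p was under 0.05 and in grey otherwise, with a bar at each row's median. The other FGF ligands cluster near 0, between -0.13 and 0.12, while Ncam1 (-0.55) and Sulf1 (-0.53) lie farthest below 0.

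For each member the gene whose level varied most like it within groups was found among 14291 genes, by Pearson's r over the 16 arrays after subtracting group means. These arrays share one normalization, and the r values are descriptive. Each is the highest of 14291 values over only 16 arrays, so high values arise for unrelated genes too. They were 0.938 for Fgf1 with Mmp15, 0.852 for Fgf2 with Sptan1, 0.872 for Fgf9 with Metap1, 0.830 for Fgf10 with Eri3 and 0.907 for Fgf12 with Or6d12c. They were 0.902 for Fgf13 with Fam210a, 0.874 for Fgf16 with Tmcc3, 0.902 for Fgfr1 with Tgfbrap1, 0.941 for Fgfr2 with Nop53 and 0.908 for Fgfr3 with Ptgis.

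**Figure D5:**
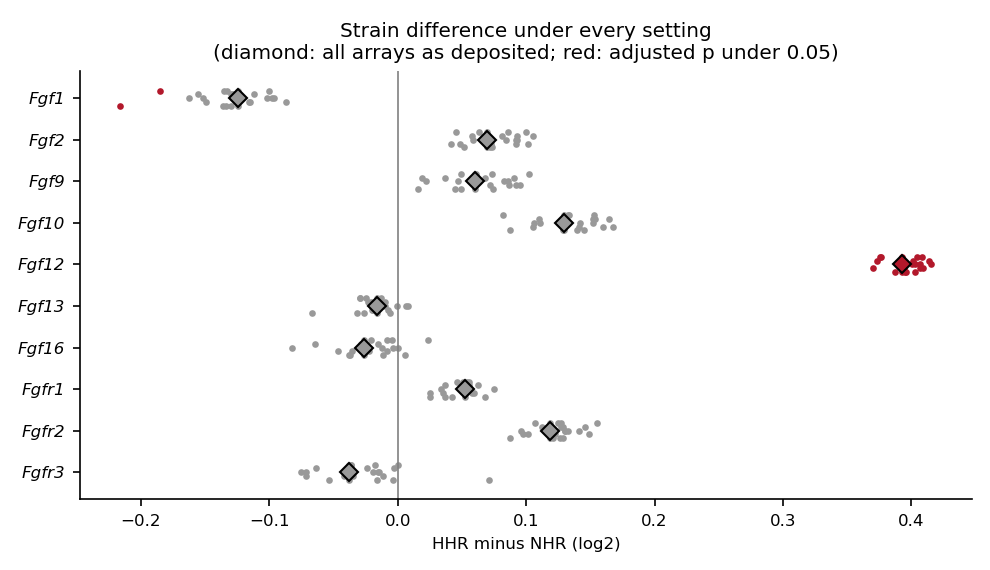
Strain difference in log2 level of each member, HHR minus NHR (horizontal axis, one row per gene), with all arrays as deposited (diamonds) and in every other setting tried (points), in red where the adjusted p was under 0.05. Fgf12 is red throughout, between 0.37 and 0.42, and Fgf1 is red in 2 of the settings.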

How the data were processed

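The values are log2 expression values deposited by the authors in a table of 27342 probe sets on 16 arrays, made with RMA (background correction, normalization between arrays and summary of probes), per the submitters' processing notes. Those notes name limma too, while versions and filters are not given in the sources used here. GEO's platform annotation gave 15097 probe sets 1 symbol, 323 several and 11922 none, and 15067 of the 15097 matched RefSeq on GRCr8. No background level accompanied the values.

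A linear model with 4 group means was fitted with limma 3.58.1 in R 4.3.3 on all probe sets and arrays, with contrasts for strain, strain within each sex, their interaction and sex. P-values were adjusted by Benjamini and Hochberg across the whole table of 27342 probe sets and called under 0.05. The fit was tested on simulated data. Groups and replicate numbers came from the sample titles. The 7 pathway lists hold other ligands, receptors and co-receptors, heparan sulphate genes, adaptors and kinases, feedback inhibitors, transcriptional targets, and sodium channel and junction partners. Up to 3 genes past the threshold with the smallest adjusted p were named per list, plus Fgfr4, Fgfrl1, Spry1, Spry2, Spry4, Dusp6, Etv4, Etv5 and Frs2 whatever their values. The other settings were quantile, median and cyclic loess normalization, a filter on dim probe sets (40th percentile on at least 4 arrays), single-symbol probe sets, a trended and robust prior, array weights, a replicate block, and each array left out in turn. Leaving out 3 NHR arrays together was added after seeing the data. The members and lists were chosen with earlier results of these data known.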

Additional observations from a re-analysis of the deposited data

Results flagged for a closer look

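In 4 of 40 gene and group combinations, 1 of the 4 arrays lay far from the other 3, with a gap to the nearest array above Dixon's 95% critical share of the range; chance marks about 1 in 20. Fgf1 read 11.27 in NHR female 1, against 11.05 to 11.08 in the other NHR females. Fgfr2 read 7.80 in the same array, against 7.97 to 7.98. Fgf9 read 7.92 in HHR female 4, against 7.61 to 7.62 in the other HHR females. Fgf10 read 6.26 in NHR male 4, one of the 3 arrays that stood apart, against 6.62 to 6.69 in the other NHR males.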

How the results depend on the processing

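Of 249 values of the members' strain differences under 25 other settings, 247 stayed on their side of the threshold. The exceptions were Fgf1 without NHR male 4 (-0.18, adjusted p = 0.0328) and without the 3 NHR arrays that stood apart (-0.22, 0.0344), so 2 members passed in each of these and 1 to 2 with single arrays left out. With single arrays left out, Fgf1 ranged from -0.185 without NHR male 4 to -0.0870 without NHR male 1 (adjusted p = 0.442). NHR male 1 was at the other end of the first principal component. In 6 values of Fgf13, Fgf16 and Fgfr3, not called in any setting, the sign turned. Probe sets called for strain numbered 3997 to 6402 of the 27342 in settings that tested them all, and 3773 of 15097 (25.0%) with single-symbol probe sets, and the share of calls that were higher in HHR was 46.6%, against 56.3% with median centring. Calls in females ranged from 1830 to 3761 and in males from 489 to 2026 with single arrays left out, and were 1238 in females without the 3 arrays and 2035 in males with array weights. The count moved by over 1.5 times in females without HHR female 1, NHR female 3 or NHR female 4, and in males without any 1 male array other than HHR male 3. The interaction had 0 to 1 calls with single arrays left out, the 1 without HHR female 3 or NHR female 2. Calls for sex were 5 with array weights and 0 without the 3 arrays, where limma was the only tool run. With a replicate block 6145 probe sets were called for strain, Etv5 passed (adjusted p = 0.0452), 1 gene rose and 3 fell among the sodium channel and junction partners, and 1 feedback inhibitor fell. The labels do not say that a replicate number marks anything shared. Correlations of deviations from the group means were above 0 in 21 and above 0.1 in 11 of 24 same-numbered pairs of arrays (-0.108 to 0.367, median 0.0905). They were above 0 in 29 of 72 other pairs (-0.384 to 0.367, median -0.0302), and 9 of 16 arrays correlated best with their own number on average. Deviations sum to 0 within each group, so the other pairs are no independent contrast to the same-numbered ones. The same-numbered pairs are a hint of pairing from the data that falls short of every pair exceeding 0.1, so the block was kept as another setting. Etv5 also passed in other settings (lowest 0.0158), as did Spry2 (lowest 0.0331). Fgf2 gave no value under the filter on dim probe sets, and another probe set per member was not run because each member has 1. The number of arrays limits the precision, and the signal over background is not known.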

Other observations

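Hras, a Ras protein of the FGF cascade, was measured by more than 1 probe set. These were lower in HHR alike but differed in whether they passed. The brightest was at -0.10 between HHR and NHR (limma adjusted p = 0.326) and a dimmer one at -0.29 (SE 0.06, adjusted p = 0.002). The count of adaptors and kinases that fell used the brightest.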
